A study of Rattus norvegicus with 48 samples.

Results

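Of the microRNAs (miRNAs) with known roles in bone formation, rno-miR-218a-5p, rno-miR-204-5p and rno-miR-138-5p were followed through serum and ulna bone of diabetic and non-diabetic rats. They were taken by name, for these published roles, from the 763 mature miRNAs counted in each library, of which 629 had at least 1 read in at least 1 library. The files hold all 3 of them. MiRNAs are short RNAs that pair through their seed (bases 2 to 8) with messenger RNAs and lower the output of these messages. As background, miR-218 promotes the osteoblast (the bone-forming cell) by targeting inhibitors of Wnt signalling, among them sclerostin, the protein that the anti-sclerostin antibody of this study neutralises. MiR-204, like its relative miR-211, restrains osteoblast formation by targeting Runx2, the master transcription factor of the osteoblast, and miR-138 restrains it by targeting focal adhesion kinase.

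The mature sequences are shown because the seed sets which messages each miRNA can pair with, and because close relatives could share reads. They are the RefSeq sequences of the rat build GRCr8, written 5′ to 3′ with the seed in capitals.
rno-miR-218a-5p: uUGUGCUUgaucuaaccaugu
rno-miR-204-5p: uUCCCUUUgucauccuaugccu
rno-miR-211-5p: uUCCCUUUgucauccuuugccu
rno-miR-138-5p: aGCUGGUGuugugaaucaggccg
rno-miR-218b: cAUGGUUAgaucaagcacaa
Of the 693 mature miRNAs in the RefSeq table, only miR-218a-5p had the seed UGUGCUU and only miR-138-5p the seed GCUGGUG. The seed UCCCUUU belonged to both miR-204-5p and miR-211-5p, which differ at 1 position of 22 (A17U, counted from the 5′ end with the miR-204-5p base first). The authors counted reads with up to 1 mismatch to miRBase, so reads of these relatives could be exchanged, and the split between them is uncertain. MiR-218b is read from the strand opposite to 1 of the miR-218a hairpins, its reverse complement lies within miR-218a-5p, and its seed is a different one.

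MiR-218a-5p, of 21 nt, is encoded by a pair of hairpins. In GRCr8 it lies at chr10:20572547-20572567 on the + strand, within the span of Slit3, and at chr14:66922413-66922433 on the - strand, within the span of Slit2. MiR-204-5p lies at chr1:229743493-229743514 on the + strand within Trpm3, and miR-211-5p at chr1:127189353-127189374 on the + strand within Trpm1. MiR-138-5p of 23 nt is likewise encoded at chr8:131178456-131178478 on the + strand within the long non-coding RNA genes LOC103690480 and LOC102550701, and at chr19:10680184-10680206 on the - strand within Slc12a3. Only the spans of these genes were at hand, so exon or intron is not stated, and reads of miR-218a-5p or miR-138-5p cannot be assigned to 1 hairpin.

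The study used male ZDF rats, which carry a homozygous leptin receptor mutation and develop type 2 diabetes, and lean wild-type (WT) rats of the same background. All groups shared a subcritical defect of the femur midshaft and a high-fat chow, and were treated for 12 weeks from 11 weeks of age. In either genotype, 5 sera were of placebo-treated rats, 5 of rats that received PTH (parathyroid hormone) and 4 of rats that received the anti-sclerostin antibody, and 4 more sera were of ZDF rats on insulin. The ulna was sequenced for both genotypes under placebo and under PTH, 4 bones in each case, most of them from rats whose serum was also sequenced. No label ties a bone to a serum, and none gives a batch.

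Libraries held 28015 to 205664 miRNA reads in serum and 41627 to 1398702 in bone, the shallowest bone libraries being replicates 1 and 2 of PTH-treated WT rats. The shallowest sera were replicates 1 and 4 of anti-sclerostin-treated ZDF rats, with 28015 and 33591 miRNA reads, against 150605 and 96551 for replicates 2 and 3 of that group. Levels are given as CPM, the count per 1000000 miRNA reads of the library after TMM scaling within the tissue. As a check of the tissue labels, the liver marker miR-122-5p had a median of 303 CPM in serum and 0 in bone, and miR-199a-5p, a miRNA of mesenchyme, 169 CPM in serum and 12195 CPM in bone. Of the other mesenchyme miRNAs listed, miR-199a-3p (225 and 6569 CPM) and miR-140-5p (243 and 1412 CPM) were also higher in bone. MiR-214-3p was closer to level (368 and 555 CPM), and miR-140-3p was higher in serum (27510 CPM) than in bone (15137 CPM). Levels of single libraries are listed in the order of replicates 1 to n, a numbering that carries no meaning. Whole tissues were sequenced, so fewer cells of a type and less RNA per cell cannot be told apart.

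The clearest separation of the 3 miRNAs was by tissue. With the reads of all libraries pooled, miR-218a-5p had 1012 CPM in bone and 207 CPM in serum, a ratio of 4.90 (95% interval 4.51 to 5.33). A few high sera weigh in this pool: the median over the 32 sera was 82.0 CPM, against 1003 CPM over the bones, and the pooled ratio within the 4 groups with both tissues ran from 2.44 in WT placebo to 17.7 in ZDF placebo rats. MiR-204-5p had 223 CPM in bone and 5.44 CPM in serum, a ratio of 41.0 (25.2 to 71.9). MiR-138-5p went the other way, with 135 CPM in bone and 546 CPM in serum, a ratio of 0.247 (0.227 to 0.268). The pool of sera includes the groups without bones. These pooled values are not TMM-scaled, and their intervals cover counting error only.

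MiR-204-5p was found mostly in bone. Serum held 16 reads of it in all, at most 2 in a library and none in 19 of 32 libraries. The 4 sera of anti-sclerostin-treated WT rats and the 4 sera of insulin-treated ZDF rats held 0 reads, which allows up to 7.62 and 9.21 CPM over each group. At this depth no difference between serum groups was detectable for miR-204-5p, and no fold change is given. All 16 bone libraries held it, with 5 to 435 reads. The bone levels were 87.7, 256, 324 and 325 CPM in WT placebo and 105, 417, 177 and 86.8 CPM in ZDF placebo rats. They were 97.9, 136, 154 and 246 CPM in WT PTH and 159, 87.7, 76.6 and 168 CPM in ZDF PTH rats. In WT placebo rats 3 of the 4 bones were above all but 1 of the 12 bones of the other groups, while replicate 1 was among the lowest. The level rose with depth in this group, whose libraries held 195045, 389490, 574989 and 952131 miRNA reads. In every bone group the deepest library was the highest in miR-204-5p, and the part of depth was not tested.

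MiR-218a-5p was present in every bone library, with 18 to 1235 reads, and at a narrow range of levels. The bones of WT placebo rats had 842, 879, 997 and 682 CPM, and those of ZDF placebo rats 1009, 1099, 933 and 1119 CPM. The bones of ZDF PTH rats had 1033, 1378, 881 and 1416 CPM. The bones of WT PTH rats spread most, with 842, 409, 1595 and 1906 CPM, and the shallowest library gave the lowest of these values.

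MiR-138-5p had 1 to 248 reads in bone and 15 to 105 in serum. Its bone levels were 101, 97.4, 144 and 107 CPM in WT placebo and 169.8, 238, 112 and 101 CPM in ZDF placebo rats. They were 19.6, 90.8, 231 and 203 CPM in WT PTH rats, where the lowest rests on 1 read, and 112, 91.9, 104 and 134 CPM in ZDF PTH rats. The 4 groups overlapped, and the widest range was that of the WT PTH group with its shallow libraries.

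**Figure D1:**
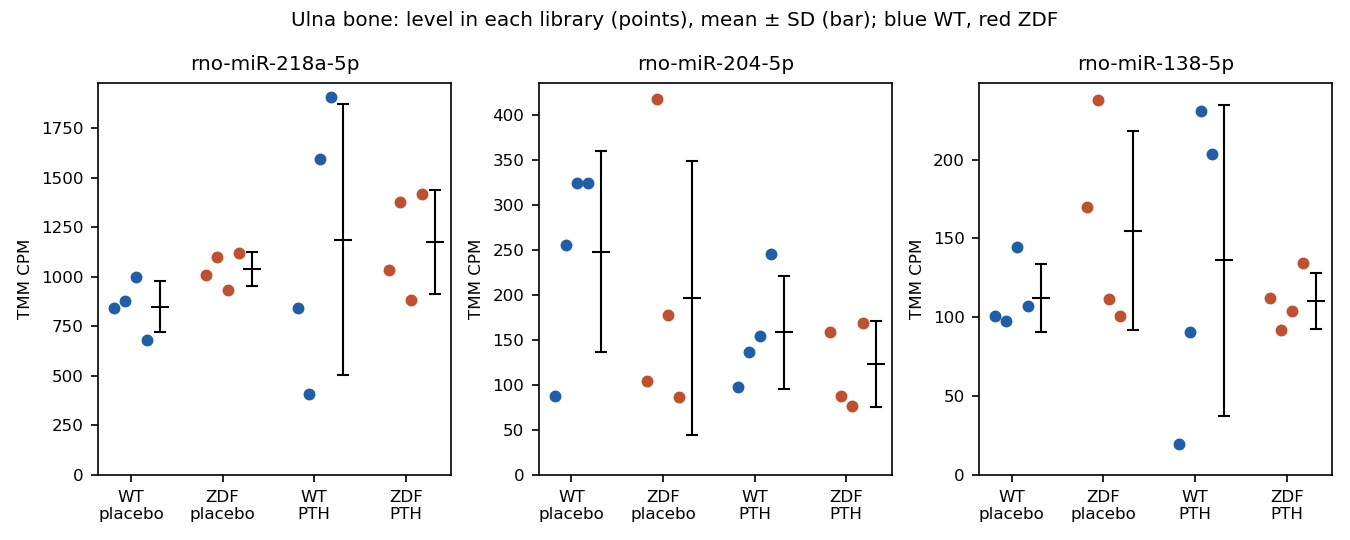
Level of miR-218a-5p, miR-204-5p and miR-138-5p in the 16 ulna bone libraries (TMM-scaled CPM, linear axis), by genotype and treatment. Points are libraries and bars are mean ± SD (n = 4). For each miRNA the 4 groups overlap, and miR-218a-5p of ZDF placebo rats, at 933 to 1119 CPM, is the tightest of its groups.

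The comparison of bone and serum within a genotype and treatment asked whether the tissue difference held in each of the 4 groups with both tissues. All 12 of these member tests passed FDR < 0.2 in edgeR's quasi-likelihood test, against a background of 64.8% of miRNAs called in WT placebo, 69% in ZDF placebo, 59.3% in WT PTH and 70.8% in ZDF PTH rats. Tissues differ in most miRNAs, so that a call by itself sets these 3 little apart.

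MiR-204-5p was higher in bone by 5.19 (SE 0.74) on the log2 scale in WT placebo (FDR = 3.84e-11), 4.75 (0.72) in ZDF placebo (FDR = 4.11e-10), 4.48 (0.97) in WT PTH (FDR = 3.4e-05) and 3.51 (0.74) in ZDF PTH rats (FDR = 1.13e-05). The serum side rests on 4, 3, 2 and 5 reads. The pooled ratios with counting intervals were 41.5 (16.1 to 153), 34.2 (11.6 to 166), 50.1 (13.6 to 419) and 11.4 (4.83 to 35.5). Bone and serum did not overlap in any of the 4 groups, with an exact permutation p of 0.00794 in each, the smallest that 4 against 5 libraries can give.

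MiR-138-5p was lower in bone in all 4 groups, and no bone library reached the lowest serum library of its group. The log2 difference was -2.06 (SE 0.53, FDR = 0.000425) in WT placebo, -1.27 (0.45, FDR = 0.011) in ZDF placebo, -2.74 (0.66, FDR = 0.000214) in WT PTH and -1.96 (0.55, FDR = 0.00103) in ZDF PTH rats. The exact permutation p was 0.0159, 0.00794, 0.00794 and 0.0159. Over all miRNAs with a read, 30.8%, 37.8%, 28.5% and 36.4% had no overlap between the tissues in these groups.

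MiR-218a-5p was higher in bone, by 1.37 (SE 0.48) on the log2 scale in WT placebo (FDR = 0.013), 4.63 (0.50) in ZDF placebo (FDR = 3.46e-19), 1.35 (0.60) in WT PTH (FDR = 0.0555) and 2.28 (0.50) in ZDF PTH rats (FDR = 3.12e-05). The tissues overlapped in both WT groups, where the highest serum exceeded every WT placebo bone and some WT PTH bones. They did not overlap in ZDF placebo rats. In ZDF PTH rats they did not overlap with TMM scaling over all libraries (serum up to 787 CPM, bones from 937 CPM). With the scaling within a tissue they did, at up to 969 CPM in serum and from 881 CPM in bone. The exact permutation p was 0.0476 in WT placebo, 0.00794 in ZDF placebo, and 0.0397 in both PTH groups. The values were larger without the sera highest in miR-218a-5p. Without WT placebo serum replicate 3 the difference was 2.55, without WT PTH serum replicate 3 it was 3.48, and without ZDF PTH serum replicate 1 it was 3.35. Whether the tissue difference itself differed between genotypes was not tested.

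In serum, miR-218a-5p was the least even of the 3 miRNAs. WT placebo rats had 117, 49.7, 1015, 209 and 202 CPM (5 to 127 reads) and ZDF placebo rats 57.4, 10.7, 81.7, 28.7 and 52.3 CPM (1 to 11 reads). In WT rats 4 of 5 were above every ZDF rat, and WT replicate 2 lay among the ZDF values. The single WT library at 1015 CPM stood far above the other 4.

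Under PTH, WT rats had 57.9, 113, 1425, 214 and 42.4 CPM of miR-218a-5p and ZDF rats 969, 0, 384, 49.3 and 68.8 CPM. Under anti-sclerostin, WT rats had 94.7, 60.3, 375 and 213 CPM and ZDF rats 865, 5.87, 19.1 and 587 CPM. Insulin-treated ZDF rats had 17.4, 109, 49.4 and 82.3 CPM. PTH- and anti-sclerostin-treated ZDF rats thus included both some of the highest libraries and libraries with 0, 1 or 2 reads, while the highest insulin-treated rat had 109 CPM, against 81.7 CPM for the highest ZDF placebo rat.

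The spread within serum groups was a pooled SD of 2.31 on the log2(CPM + 1) scale for miR-218a-5p, the third largest of 191 miRNAs with a median of at least 5 reads, whose median SD was 0.77. For miR-138-5p it was 0.54, rank 154. In bone the order turned, with 0.55 for miR-218a-5p, 0.78 for miR-204-5p and 0.87 for miR-138-5p, beside a median of 0.77 over 270 miRNAs. MiR-218a-5p had a median of 7 reads and a minimum of 0 in serum, against 310 and 18 in bone. The minimum of miR-138-5p was 15 reads in serum and 1 in bone. The part of low counts in these spreads was not tested.

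**Figure D2:**
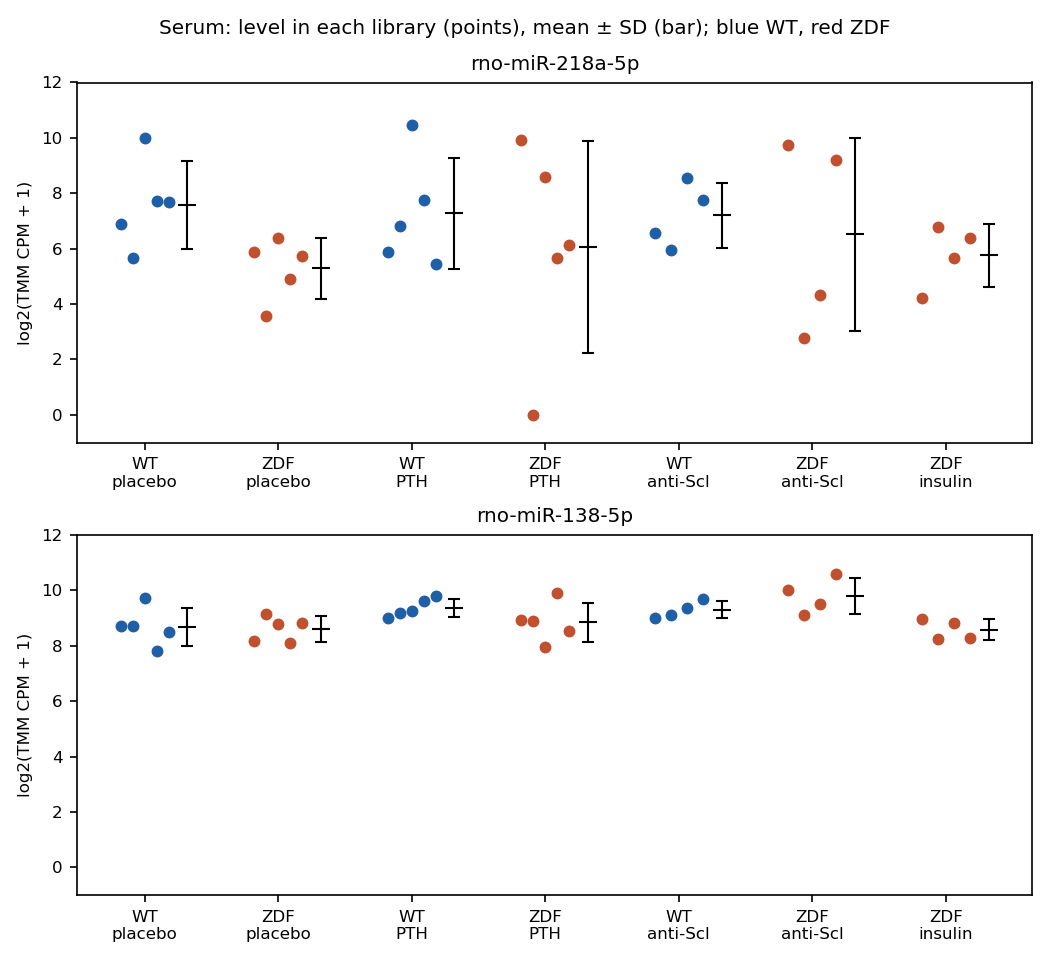
Level of miR-218a-5p and miR-138-5p in the 32 serum libraries on the log2(TMM-scaled CPM + 1) scale, by genotype (WT blue, ZDF red) and treatment. Points are libraries and bars are mean ± SD (n = 4 or 5). MiR-218a-5p runs from 0 to 1425 CPM and splits the anti-sclerostin-treated ZDF rats into a high and a low pair, while miR-138-5p stays between 222 and 1542 CPM.

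The summed level of the striated muscle miRNAs miR-1-3p, miR-133a-3p, miR-133b-3p and miR-206-3p moved with serum miR-218a-5p across the libraries. Nearly all of this sum in serum was miR-133a-3p, with a median of 5201 CPM, against 24.6 for miR-1-3p, 70.3 for miR-133b-3p and 0 for miR-206-3p. The 4 miRNAs were not correlated singly. The sum ran from 117 to 45255 CPM, and the 4 libraries with the highest miR-218a-5p (WT PTH replicate 3, WT placebo replicate 3, ZDF PTH replicate 1 and ZDF anti-sclerostin replicate 1) had sums of 45255, 39194, 23422 and 17222 CPM. In 6 of 7 serum groups, ZDF placebo excepted, the library highest in miR-218a-5p was also the highest in the muscle sum. Over the 32 sera Spearman's rho was 0.80 and Pearson's r on the log2 scale 0.81, each with a permutation p of 1e-05, the smallest that 100000 permutations can give, and 0.00025 after adjustment over the 25 relations of a member and a marker list. Without the 2 sera farthest from the median of the muscle sum r was 0.80, and for deviations from the group means it was 0.86. All points share the library's scaling, and miR-218a-5p has a median of only 7 reads in serum.

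No such relation was seen for miR-138-5p in serum (rho = -0.003, permutation p = 0.987) or for miR-218a-5p in bone (rho = 0.006, permutation p = 0.987), where the muscle sum was far higher, at 47869 to 456591 CPM. Serum miR-218a-5p also ran against the nervous tissue list (rho = -0.50, r = -0.52, adjusted permutation p = 0.0342 and 0.0192, r = -0.48 without the 2 farthest libraries). In bone, miR-204-5p moved with that list (rho = 0.72, r = 0.71, adjusted permutation p = 0.0254 and 0.0192, r = 0.72 without the 2 farthest), with the same highest library in 4 of 4 groups. It also moved with the striated muscle list by Pearson's r (0.61, permutation p = 0.0118, adjusted 0.0738, 0.78 for deviations from the group means), less so by rank (rho = 0.46, permutation p = 0.0777, adjusted 0.292), and r was 0.29 without the 2 bones farthest from the median. With the nervous tissue list in bone, rho was also 0.61 for miR-138-5p (adjusted permutation p = 0.0872) and 0.52 for miR-218a-5p (adjusted 0.204). Pearson's r was 0.47 (adjusted permutation p = 0.215) and 0.53 (adjusted 0.176). The bone highest in both miR-204-5p and this list was the deepest library of its group each time. Nearly all of the nervous tissue sum was miR-128-3p, with a median of 1801 CPM in bone and 15342 CPM in serum, while the neuronal marker miR-124-3p had a read in 13 of 16 bones and in 1 of 32 sera. The part of these cell types in the results was not tested.

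**Figure D3:**
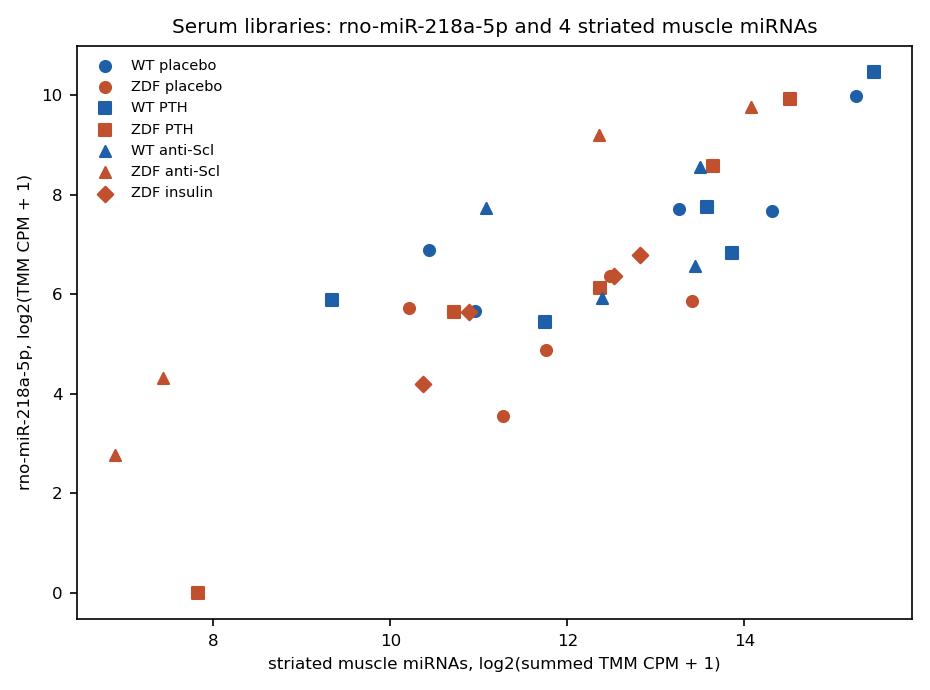
Serum miR-218a-5p against the summed level of 4 striated muscle miRNAs, mostly miR-133a-3p, in the 32 serum libraries (both TMM-scaled CPM, log2 axes after adding 1). Points are libraries, coloured by genotype and marked by treatment. The libraries rise together (Spearman's rho 0.80), and the highest in both measures is a PTH-treated WT rat.

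Serum of placebo rats was compared between ZDF and WT to ask what the diabetic state changes without treatment. MiR-218a-5p was lower in ZDF rats, at 46.2 ± 27.3 CPM against 319 ± 395 CPM (mean ± SD, n = 5 each), a log2 fold change of -2.76 (SE 0.55, FDR = 6.49e-05, exact permutation p = 0.0317). This fit calls 10% of the miRNAs tested. The difference was -1.72 on the log2 scale without WT replicate 3 (FDR = 0.0726), and filterByExpr, a stricter filter on low counts, removed miR-218a-5p before the fit. The muscle sum of these groups was 1389 to 39194 CPM in WT and 1186 to 10902 CPM in ZDF rats, and 2 of its 4 miRNAs were called lower and none higher.

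MiR-138-5p had 416, 417, 839, 222 and 356 CPM in the WT placebo sera and 287, 569, 438, 272 and 454 CPM in the ZDF placebo sera. The groups overlapped over most of their range. The log2 fold change was -0.21 (SE 0.42, 95% interval -1.04 to 0.62, FDR = 0.925, exact permutation p = 0.857). The interval of miR-218a-5p was -3.84 to -1.68. Both intervals use the spread fitted over miRNAs of like mean level, not the miRNA's own scatter, so they cannot bound the change of a single miRNA.

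Between ZDF and WT rats under the same treatment, no member passed FDR < 0.2. In PTH-treated rats (2.33% of 43 miRNAs called) both members were removed by the independent filter on mean level and have no FDR. The log2 fold change of miR-218a-5p was -0.30 (SE 0.64, exact permutation p = 0.603) and that of miR-138-5p -0.42 (SE 0.52, exact permutation p = 0.159). In anti-sclerostin-treated rats (3.69% called) the values were 0.71 (SE 0.63, FDR = 0.840, exact permutation p = 0.714) and 0.49 (SE 0.51, FDR = 0.902, exact permutation p = 0.229). Without the 2 shallowest sera, both of ZDF rats, the value of miR-218a-5p was -3.88 (FDR = 0.000264).

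The bones showed no genotype difference in the 3 miRNAs past the threshold. In placebo bones, where 12.6% of miRNAs were called, miR-218a-5p differed by 0.28 (SE 0.33, 95% interval -0.37 to 0.92, FDR = 0.749, exact permutation p = 0.0571), with 3 of 4 ZDF bones above every WT bone. MiR-204-5p differed by -0.30 (SE 0.48, interval -1.25 to 0.64, FDR = 0.835, exact permutation p = 0.514) and miR-138-5p by 0.47 (SE 0.40, FDR = 0.590, exact permutation p = 0.229). Without ZDF placebo replicate 2, the bone with the most miR-204-5p (417 CPM), the difference of miR-204-5p was -1.03 and passed the threshold (FDR = 0.147). The muscle sum in these bones was 53567 to 424538 CPM in WT and 77020 to 456591 CPM in ZDF rats, highest in that same ZDF bone. In PTH-treated bones (5.36% called) the 3 log2 differences were -0.04 (SE 0.48), -0.45 (0.54) and -0.44 (0.54), with FDR of 0.989, 0.715 and 0.715. With 4 against 4 bones the smallest exact p is 0.0286.

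Treatment was compared with placebo within each genotype, and all treatments of a genotype share the same placebo rats, so that a high or low placebo group enters each of them. In ZDF rats, PTH went with a log2 fold change of 2.50 for serum miR-218a-5p (SE 0.57, FDR = 0.00449), 1 of 5 calls among 462 miRNAs (1.08%). Of the 5 PTH-treated ZDF rats 2 lay above all placebo rats, at 969 and 384 CPM, and 1 lay below them, at 0 reads. The exact permutation p on the log2 scale was 0.714. The muscle sum was 225 to 23422 CPM under PTH and 1186 to 10902 CPM under placebo. Without ZDF PTH replicate 1 the fold change was 1.40 (FDR = 0.637), and the call was also lost in DESeq2 (2.64, FDR = 0.992) and when all serum groups were fitted together (2.40, FDR = 0.737).

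Under anti-sclerostin in ZDF rats both serum members passed FDR < 0.2, in a comparison that called 8.03% of miRNAs. MiR-218a-5p differed from placebo by 2.57 on the log2 scale (SE 0.62, FDR = 0.00562, exact permutation p = 0.468). FilterByExpr and the fit of all serum groups removed miR-218a-5p and gave no value. The high pair of treated rats had 865 and 587 CPM and muscle sums of 17222 and 5237 CPM, and the low pair 5.87 and 19.1 CPM with muscle sums of 117 and 172 CPM. Without replicate 1 or replicate 4 of the high pair the fold change was 1.75 (FDR = 0.0691) or 2.17 (FDR = 0.0711). These 2 rats have the shallowest sera of all, and without both of them the sign turned, to -1.94 (FDR = 0.105), with 2 treated rats left. MiR-138-5p was higher, with 1045, 546, 726 and 1542 CPM (965 ± 437 CPM, mean ± SD) against 404 ± 124 CPM under placebo, a log2 fold change of 1.15 (SE 0.47, FDR = 0.195, exact permutation p = 0.0238). Of the treated rats 3 of 4 were above all placebo rats, and the highest levels were again those of replicates 1 and 4, without which the value was 0.64 (FDR = 0.344). The FDR with all 4 treated rats lies just under the threshold, and the call was also lost without any filter (FDR = 0.291), with filterByExpr (FDR = 0.240) and in 5 of the 9 fits that left out a library.

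In WT rats, anti-sclerostin gave miR-138-5p levels of 514, 553, 663 and 834 CPM, a log2 fold change of 0.51 (SE 0.47, FDR = 0.729, exact permutation p = 0.159), and miR-218a-5p differed by -0.75 (SE 0.54, FDR = 0.630, exact permutation p = 0.714), with 5.57% of miRNAs called. PTH in WT rats gave 511, 577, 613, 788 and 891 CPM of miR-138-5p, and 4 of the 5 placebo sera lay below all of these. The log2 fold change was 0.53 (SE 0.50, FDR = 0.995, exact permutation p = 0.0794), and that of miR-218a-5p 0.11 (SE 0.53, FDR = 0.995, exact permutation p = 0.786), with 1.08% called. The latter value turned to -1.63 (FDR = 0.168) without WT PTH replicate 3, the serum highest in both miR-218a-5p and the muscle sum.

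In ZDF rats, PTH left miR-138-5p at 491, 478, 244, 949 and 373 CPM, a log2 fold change of 0.37 (SE 0.45, FDR = 0.863, exact permutation p = 0.571). Insulin gave 505, 300.0, 457 and 309 CPM, a log2 fold change of -0.11 (SE 0.40, FDR = 0.923, exact permutation p = 0.937). For miR-218a-5p the insulin difference was 0.37 (SE 0.64, FDR = 0.798, exact permutation p = 0.556). Insulin was the treatment with the largest share of calls in serum, 15.9% of the miRNAs tested, and neither member was among them.

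In bone, PTH moved none of the 3 past the threshold. In WT rats (14.2% called) miR-218a-5p, miR-204-5p and miR-138-5p had log2 fold changes of 0.47 (SE 0.51), -0.58 (0.53) and 0.39 (0.54), with FDR of 0.673, 0.635 and 0.785. In ZDF rats they had 0.12 (SE 0.30), -0.71 (0.46) and -0.53 (0.39), with FDR of 0.944, 0.672 and 0.694. That comparison called 0% of 569 miRNAs in edgeR, with 42 at an unadjusted p under 0.05, and 1 miRNA in DESeq2. The count rests on single libraries, with 52 calls (25 higher, 27 lower) without ZDF PTH replicate 4, 17 without ZDF placebo replicate 1, 6 without ZDF placebo replicate 4 and 2 without ZDF PTH replicate 1.

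**Figure D4:**
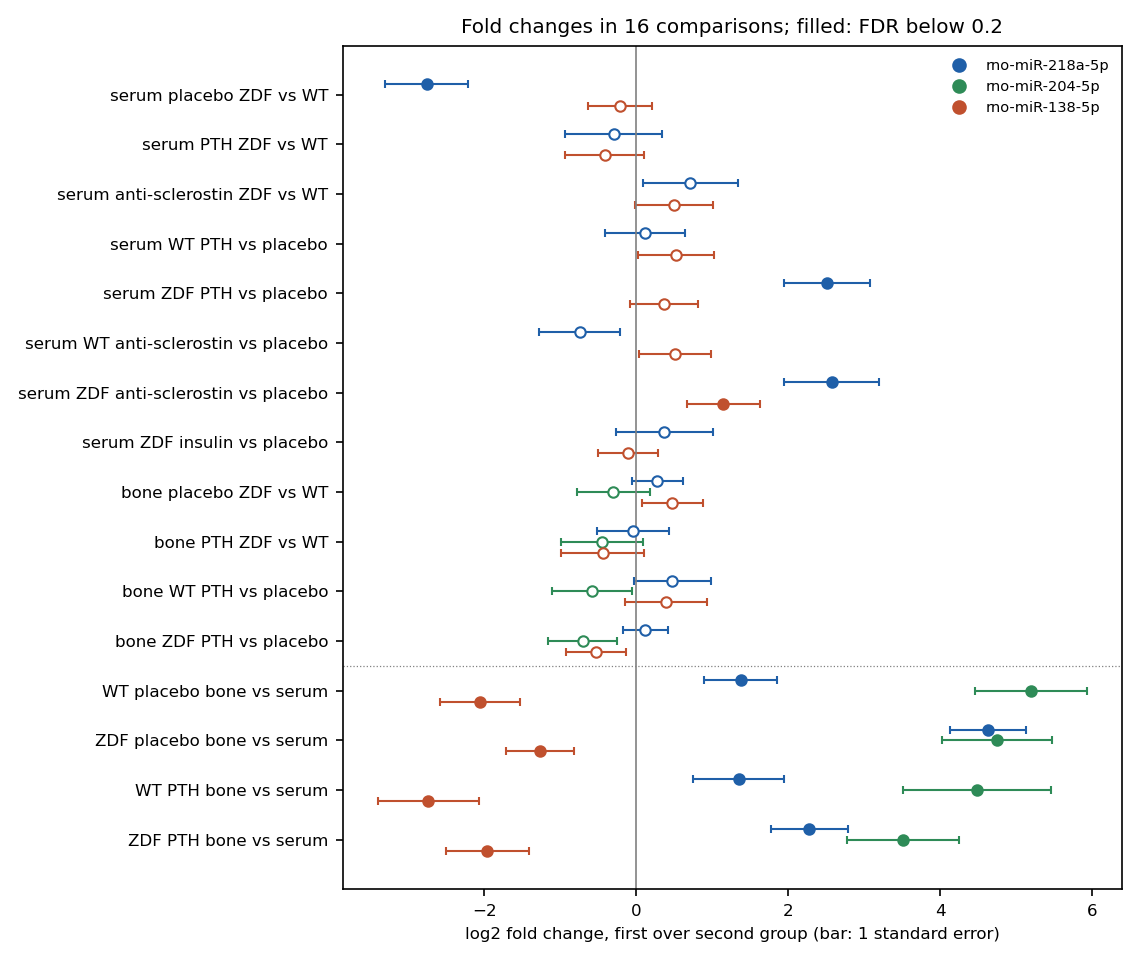
Log2 fold change ± SE of each member in the 16 comparisons of 2 groups (edgeR quasi-likelihood test), with filled points at FDR < 0.2 and open points otherwise. The 12 bone-serum values are all filled, with miR-204-5p farthest to the right in each and miR-138-5p to the left of 0, and 4 of the values within a tissue are filled.

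The responses of the genotypes were compared by an interaction term. The response of serum miR-218a-5p to anti-sclerostin was higher in ZDF than in WT rats by 3.46 on the log2 scale (SE 0.85, FDR = 0.0154), 1 of 3 calls (1.06% of the miRNAs tested). This value draws on the low ZDF placebo and the high WT placebo levels alike, and it was 2.42 (FDR = 0.345) without WT placebo replicate 3. Without the 2 shallowest sera the sign turned, to -0.92 (FDR = 0.835). No permutation test was run for the interactions. The anti-sclerostin response of miR-218a-5p by itself had an exact permutation p of 0.468 in ZDF and 0.714 in WT rats. For PTH, where 2.25% were called, the difference in response was 2.38 (SE 0.90, FDR = 0.260). It ranged from 1.14 to 4.17 when 1 serum was left out, and was 4.17 (FDR = 0.000161) without WT PTH replicate 3. MiR-138-5p had interaction values of 0.72 (SE 0.66, FDR = 0.957) for anti-sclerostin and -0.28 (SE 0.67, FDR = 0.956) for PTH. In bone, the PTH response differed between genotypes by -0.33, -0.10 and -0.92 for miR-218a-5p, miR-204-5p and miR-138-5p, with FDR of 0.972, 0.988 and 0.753 (3.03% called).

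Ordered by median level in serum, miR-218a-5p stood at 303 CPM in ZDF anti-sclerostin, 202 in WT placebo, 154 in WT anti-sclerostin, 113 in WT PTH, 68.8 in ZDF PTH, 65.8 in ZDF insulin and 52.3 in ZDF placebo rats. For miR-138-5p the order was 885 in ZDF anti-sclerostin, 613 in WT PTH, 608 in WT anti-sclerostin, 478 in ZDF PTH, 438 in ZDF placebo, 416 in WT placebo and 383 in ZDF insulin rats. In bone, the median of miR-204-5p was 290.0 CPM in WT placebo, 145 in WT PTH, 141 in ZDF placebo and 124 in ZDF PTH rats. Neighbours in each of these orders overlapped, so the orders are not resolved step by step.

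The relatives and the opposite arms of the hairpins were scarce. MiR-218b had 0 reads in all 48 libraries. The 3′ arms of the 2 miR-218a hairpins differ in sequence and so show which hairpin a read comes from.
rno-miR-218a-1-3p: aAACAUGGuuccgucaagcac
rno-miR-218a-2-3p: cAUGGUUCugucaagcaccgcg
In bone, 45 of the 50 reads of these arms, 90.0% (95% exact binomial interval 78.2 to 96.7), were from miR-218a-1-3p, whose hairpin lies in Slit2. Serum had 8 and 1 reads. For miR-138 the 3′ arms had 5 and 3 reads in bone and 14 and 15 in serum, too few to tell the hairpins apart.

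MiR-211-5p, which has the seed of miR-204-5p, had 63 reads in bone and 2 in serum. MiR-204-5p made up 95.8% (94.6 to 96.7) of the reads of both in bone. The bone reads of miR-211-5p were 2, 5, 15 and 19 in WT placebo and 0, 12, 0 and 0 in ZDF placebo rats. In WT PTH rats they were 0, 0, 2 and 2, and in ZDF PTH rats 1, 0, 1 and 4. The ZDF placebo bone with 12 was also the one highest in miR-204-5p and the deepest of all bones, with 1398702 miRNA reads. Those with 0 had 192505, 116097 and 209490 miRNA reads, so these counts depend on depth. The 12 reads were 11.5 CPM, and the highest WT placebo bone had 25.7 CPM. The 3′ arm miR-204-3p had 46 reads in bone, where miR-204-5p was 96.9% (95.9 to 97.7) of both arms, and 14 in serum, where it was 53.3% (34.3 to 71.7). All these intervals cover counting error only.

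The miRNAs whose levels ran most like a member over the libraries of a tissue are given as a description. Over 16 bones and 225 candidates, miR-204-5p was most like miR-365-3p (Spearman's rho 0.90), miR-145-5p (0.86) and miR-149-5p (0.86). MiR-218a-5p was most like miR-539-5p (0.82), miR-103-3p (0.79) and miR-872-5p (0.79), and miR-138-5p most like miR-126a-5p (0.69), miR-15a-5p (0.64) and miR-128-3p (0.63). Over 32 sera and 153 candidates, miR-138-5p was most like miR-130a-3p (0.62), miR-22-3p (0.54) and miR-378a-3p (0.47). In serum miR-218a-5p ran little with miR-138-5p (0.15). Its rho of 0.17 with miR-204-5p cannot show a relation or its lack, since only 13 of 32 sera held a read of miR-204-5p. In bone rho was 0.59 for miR-218a-5p with miR-138-5p, 0.50 for miR-204-5p with miR-138-5p and 0.05 for miR-218a-5p with miR-204-5p.

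The 3 miRNAs were set beside 30 other miRNAs reported to act on osteoblasts, among them repressors of Runx2 such as miR-133a-3p. In placebo serum, where 10% of all miRNAs tested were called, 2 of the 28 tested were higher in ZDF rats and 4 lower. With filterByExpr or DESeq2 there were 2 higher and 1 lower, and with all groups in 1 fit 1 higher and 0 lower. MiR-133a-3p, which is also a striated muscle miRNA, fell by 1.69 on the log2 scale (SE 0.36, FDR = 0.000147), miR-100-5p fell by 1.35 (FDR = 0.0227), and miR-31a-5p rose by 1.65 (FDR = 0.0227). The list's median was -0.08 beside -0.19 over all miRNAs tested.

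Among the treatments in serum, insulin called 0 higher and 8 lower of 26 in this list, with a median of -0.63 beside -0.15 over all miRNAs. These included miR-31a-5p (-1.82, FDR = 0.00883), miR-143-3p (-1.03, FDR = 0.0130) and miR-29a-3p (-0.86, FDR = 0.0540), the last of a family that promotes osteoblast maturation. The number lower was 6 with RLE scaling, 15 with library totals, 4 in DESeq2 and 3 with all groups in 1 fit, and the share called over all miRNAs was 15.9%. Of the 4 erythrocyte miRNAs 3 were called higher and 0 lower in the same comparison, and their sum was 233362 to 381326 CPM under insulin against 87066 to 159349 CPM under placebo. The part of erythrocyte RNA in the list's change was not tested. Anti-sclerostin in ZDF rats called 0 higher and 2 lower of 26, miR-143-3p (-2.65, FDR = 7.93e-08) and miR-145-5p (-1.46, FDR = 0.0225), beside 8.03% called over all miRNAs. Without the 2 shallowest sera that list had 5 higher and 5 lower of 25. In WT rats anti-sclerostin called 1 higher and 3 lower of 27 (5.57% over all miRNAs), and 0 with filterByExpr, DESeq2 or all groups in 1 fit. PTH called 1 higher of 28 in ZDF rats, miR-217-5p (3.07, FDR = 0.0654), against 1.08% over all miRNAs, and 0 under those 3 settings. In WT rats PTH called 0 of 25.

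In bone, the list had 1 higher and 2 lower of 23 in ZDF placebo rats against WT, with miR-214-3p, a repressor of bone formation, at -2.08 (FDR = 0.0828), beside 12.6% called over all miRNAs. With no filter the list had 0 calls of 30. MiR-214-3p is also a marker of bone mesenchyme, a list of which 3 of 5 were lower (median -0.92), with sums of 23088 to 41387 CPM in ZDF and 39001 to 71931 CPM in WT bones, and the part of that cell type was not tested. PTH in WT rats called 1 higher and 5 lower of 28, beside 14.2% over all miRNAs. MiR-133a-3p fell by 1.90 (FDR = 0.00506), miR-31a-5p fell by 2.05 (FDR = 0.0120) and miR-214-3p fell by 1.83 (FDR = 0.0120), while miR-143-3p rose by 1.61 (FDR = 0.0139). Of the 4 striated muscle miRNAs 1 was called higher and 1 lower in this comparison. Their sum was 47869 to 69008 CPM under PTH and 53567 to 424538 CPM under placebo, and the part of muscle was not tested. PTH in ZDF rats called 0 of 30 (0% over all miRNAs). PTH-treated ZDF bones had 3 higher and 0 lower of 24 against PTH-treated WT bones (2 and 2 with RLE scaling), beside 5.36% over all miRNAs. These were miR-196a-5p (2.02, FDR = 0.192) and the striated muscle miRNAs miR-133a-3p (1.31, FDR = 0.0471) and miR-206-3p (1.46, FDR = 0.0940). The muscle sum was 128434 to 177597 CPM in these ZDF and 47869 to 69008 CPM in these WT bones, and the part of muscle was not tested. Between tissues, 16 of 30 in WT placebo and 16 of 29 in ZDF placebo rats were higher in bone, and 5 and 6 lower. Over all miRNAs 64.8% and 69% were called, so these counts do not set the list apart.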

How the data were processed

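Small RNA was sequenced from 32 serum and 16 ulna bone samples. Per the study's methods, adapters were removed with cutadapt and reads of 17 nt or more kept, which the authors aligned (bowtie, miRDeep2) against Rnor_6.0 (up to 2 mismatches) and then against miRBase (up to 1 mismatch), and they deposited whole-number read counts for 763 mature miRNAs per library. The deposited RPM values, scaled by the authors to the library total, served only to compute library totals, and a column scaled to miRNA reads was not used here. The 10 rows of added control RNAs were left out.

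Groups came from the labels. The quasi-likelihood test of edgeR 4.0.16 (with limma 3.58.1, in R 4.3.3) was run on the counts with TMM scaling, only the groups compared in each fit, miRNAs with at least 1 read, and independent filtering on mean CPM (50 quantiles up to 0.95) at FDR < 0.2. The FDR is the p-value after Benjamini-Hochberg adjustment over all miRNAs tested. In all but 3 of the 16 fits of a pair of groups (PTH serum of ZDF against WT rats, placebo bones, and PTH bones of ZDF rats) each miRNA took the spread fitted for its mean level over all miRNAs, so the SE of a single miRNA does not reflect its own scatter. Exact two-sided permutation tests over libraries of log2(TMM CPM + 1) stand beside each fit of a pair of groups, with a smallest p of 0.00794 for 5 against 5 or 4 against 5 and 0.0286 for 4 against 4. The interactions had no permutation test. For bone against serum, these tests and the overlaps between the tissues used TMM scaling over all libraries together. A member that no library of either group held at more than 3 reads got no test. Same-group libraries differed by more than counting noise in all 82 pairs, the smallest chi-square per degree of freedom being 12.7. Permutation p-values rest on the spread of each member between rats as labelled. In the fits where the spread was that of the mean level, the edgeR p-values and FDR do not.

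Alternatives were RLE scaling, library totals, no filter, filterByExpr, DESeq2 1.42.0, all groups of a tissue in 1 fit, and each library left out. For the interactions, the last was chosen after seeing the data, as was leaving out the 2 shallowest sera. The members, the marker lists and the 30 osteoblast miRNAs were chosen with earlier results of these data known. The miRNAs named are the members, their hairpin relatives, up to 5 called list miRNAs per comparison by lowest FDR, and the 3 most alike per member and tissue with a median of at least 10 reads.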

Additional observations from a re-analysis of the deposited data

Results flagged for a closer look

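In serum of WT placebo rats, 1 of 5 libraries had 1015 CPM of miR-218a-5p, and its gap to the next library exceeded Dixon's 95% limit. The same held for 1 of 5 PTH-treated WT rats, at 1425 CPM. These 2 sera also had the highest muscle sums, and the part of muscle RNA in them was not tested. Of 26 sets of a member and a group checked, 2 passed this limit. For normally distributed values chance alone passes about 1 in 20. The limit was taken on CPM without log scaling, where levels are skewed, so that rate may not hold here.

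The response of serum miR-218a-5p to anti-sclerostin differed between ZDF and WT rats by 3.46 on the log2 scale (edgeR interaction term, FDR = 0.0154). The difference was positive in all 18 fits that left out 1 serum, at 2.42 to 4.12, and without WT placebo replicate 3 it missed the threshold (FDR = 0.345). Without the 2 shallowest sera, replicates 1 and 4 of anti-sclerostin-treated ZDF rats, it turned to -0.92 (FDR = 0.835). This term had no permutation test. The exact permutation p of the response itself was 0.468 in ZDF and 0.714 in WT rats.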

How the results depend on the processing

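No paired analysis was possible because the labels give no replicate numbers and do not link a bone to a serum. All 12 calls between bone and serum held under every alternative that gave a value. With 1 library left out, 397 of the members' values kept direction and side of the threshold, 22 turned sign, 13 gained and 7 lost a call. Under the other settings 229 did, 8 turned sign and 6 lost a call, and the cause was not tested. MiR-218a-5p in ZDF PTH serum lost its call in DESeq2 (2.64) and with all groups in 1 fit (2.40), miR-138-5p in ZDF anti-sclerostin serum with no filter (1.15) and with filterByExpr (1.29), and the miR-218a-5p interaction for anti-sclerostin with filterByExpr (3.62, FDR = 0.822). Leaving out the 2 shallowest sera, chosen after seeing the data, turned miR-218a-5p under anti-sclerostin to -1.94 against placebo in ZDF rats, -3.88 for ZDF against WT and -0.92 for the interaction, and miR-138-5p in ZDF rats lost its call (0.64). Sign also turned in values near 0: miR-218a-5p in WT PTH serum with all groups fitted (-0.0499), miR-138-5p under insulin with RLE (0.0255) and DESeq2 (0.0236), and miR-218a-5p in ZDF against WT PTH bones with RLE (0.00892) and DESeq2 (0.000197). FilterByExpr left miR-218a-5p without a value in placebo serum, where all groups in 1 fit gave -2.74 (FDR = 0.191) and DESeq2 -2.75 (FDR = 0.00480).

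With 1 library left out, log2 values of miR-218a-5p in serum ran from -3.22 to -1.72 for ZDF against WT under placebo, -1.47 to 1.26 under PTH and -0.0934 to 1.26 under anti-sclerostin. Against placebo they ran from -1.63 to 1.32 for PTH and -1.36 to 0.36 for anti-sclerostin in WT, and 1.40 to 3.01 for PTH, 1.75 to 3.18 for anti-sclerostin and -0.0087 to 0.87 for insulin in ZDF rats. MiR-138-5p ran from -0.43 to 0.0230 for placebo ZDF against WT, and in ZDF rats -0.13 to 0.54 for PTH, 0.86 to 1.41 for anti-sclerostin and -0.31 to 0.10 for insulin. In bone, ZDF against WT ran from -1.03 to -0.0510 for miR-204-5p under placebo and -0.28 to 0.24 for miR-218a-5p under PTH. The interactions ran from 1.14 to 4.17 (PTH, past the threshold in 12 of 20 fits) and 2.42 to 4.12 (anti-sclerostin) for serum miR-218a-5p, and -0.30 to 0.62 for bone miR-204-5p.

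The number of miRNAs called over the other settings was 10 to 38 for placebo serum (37 as reported), 0 to 2 (1) and 0 to 78 (12) for ZDF against WT under PTH and anti-sclerostin, 0 to 2 (3) and 0 to 20 (17) for PTH and anti-sclerostin in WT, and 0 to 5 (5), 2 to 101 (24) and 18 to 82 (49) for PTH, anti-sclerostin and insulin in ZDF serum. In bone it was 0 to 34 (29) for placebo, 7 to 30 (14) for PTH-treated ZDF against WT and 12 to 57 (55) for PTH in WT. Between tissues it was 179 to 337 (330) and 174 to 345 (348) for WT and ZDF placebo, and 147 to 318 (308) and 155 to 353 (354) for WT and ZDF PTH. For the interactions it was 0 to 6 (6), 0 to 21 (3) and 0 to 2 (8). The upper ends of 78, 101 and 21 are without the 2 shallowest sera. With 1 library left out it was 22 to 48, 0 to 12, 5 to 21, 0 to 10, 7 to 36, 2 to 9, 8 to 52 and 21 to 64 for the serum comparisons in this order, 7 to 108 for placebo bones, 8 to 58 and 32 to 117 for the other bones named, 0 to 52 (0) for PTH in ZDF bones, 268 to 353 between tissues, and 0 to 29, 1 to 11 and 1 to 40 for the interactions.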
